A study of Mus musculus with 22 samples.

Results

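Nuclear and imprinted long noncoding RNAs were read in ventricular cardiomyocytes of mice that lacked CASK, SAP97 or dystrophin, together with controls of each line. The 10 transcripts were chosen by gene symbol (Malat1, Neat1, Tug1, Miat, Kcnq1ot1, Airn, Meg3, Rian, Mirg and Snhg11), out of 46813 genes listed for all 3 lines. CASK and SAP97, which is encoded by Dlg1, are scaffold proteins of the cardiomyocyte membrane, and dystrophin links the cytoskeleton to the extracellular matrix.

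RNA came from 21 male mice, with 1 library per mouse. CASK KO mice (n = 3) carried a Cre recombinase driven by the cardiac alpha-myosin heavy chain promoter together with floxed Cask, and CASK control mice (n = 3) carried the same Cre without the floxed allele. SAP97 KO mice (n = 3) carried this Cre and floxed SAP97. By the study's methods, SAP97 control mice (n = 3) carried floxed SAP97 without Cre, whereas its sequencing metrics list them as wild type with Cre. Both lines had mixed backgrounds. MDX mice (n = 4) were dystrophin-deficient MDX-5CV animals on Bl6/Ros, and MDX control mice (n = 5) were wild type on Bl6/J, except that replicate 5 of either group had been backcrossed 3 times. Ages were 10.1 to 11.3 weeks in CASK KO and 11 to 12.7 weeks in CASK control mice, 10.7 to 13 weeks in SAP97 KO and 10.6 to 13 weeks in SAP97 control mice, and 10.9 to 17.7 weeks in MDX and 10.9 to 14.7 weeks in MDX control mice. A further MDX library, replicate 1, has a low read number per the labels and was left out. The Cre promoter is active in cardiomyocytes, whereas MDX mice carry their mutation in every tissue.

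Long noncoding RNAs are transcripts that encode no protein, and many of them stay in the nucleus. Malat1 gathers in nuclear speckles, where splicing factors are stored, and Neat1 is the scaffold around which paraspeckles form. Kcnq1ot1 and Airn are transcribed from the paternal allele, antisense to Kcnq1 and Igf2r, and silence neighbouring genes on the same chromosome. Meg3, Rian and Mirg are expressed from the maternal allele of the Dlk1-Dio3 domain, where Rian hosts small nucleolar RNAs and Mirg hosts microRNAs.

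Malat1 and Neat1 lie next to each other on chromosome 19 of GRCm38, at chr19:5795690-5802672 and chr19:5824708-5845478, both on the minus strand and each annotated as 1 exon in GENCODE vM21. The 3′ ends of Malat1 and of the long Neat1 transcript, Neat1-201, are not made by the usual polyadenylation. Both are cut next to a tRNA-like structure, and the new end is protected by a triple helix of U-rich and A-rich tracts. Read pairs were counted per gene, so values of Neat1 do not separate its transcripts. These stretches are shown because they set both transcripts apart from ordinary messengers in a library of total RNA, with U-rich tracts (written in T) and the A-rich tract in capitals.
Malat1 3′ end element: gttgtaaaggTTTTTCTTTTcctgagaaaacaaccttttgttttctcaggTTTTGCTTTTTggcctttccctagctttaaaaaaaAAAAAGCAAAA
Neat1 3′ end element: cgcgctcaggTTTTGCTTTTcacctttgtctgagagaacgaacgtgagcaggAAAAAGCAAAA
The Malat1 stretch covers bases 6596 to 6691 of the 6983 bases of Malat1-201 (chr19:5795982-5796077), with 65 bases between its first U-rich tract and the A-rich tract and 292 annotated bases after it. The Neat1 stretch covers bases 20709 to 20771 (chr19:5824708-5824770), the very end of Neat1-201, with 32 bases between both tracts. The A-rich letters AAAAAGCAAAA occurred in the last 400 bases of 152 of 141767 annotated mouse transcripts (0.107%).

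The other members are spread over the genome. Tug1 (chr11:3639785-3649673, minus strand) starts head to head with Morc2a and shared 483 exonic bases with it on the opposite strand. Kcnq1ot1 (chr7:143203458-143296549, minus strand, 1 exon) lies entirely inside the body of Kcnq1, almost all of it opposite to Kcnq1 introns, and shared 121 bases with Kcnq1 exons. Airn (chr17:12741311-12860136, plus strand) starts inside Igf2r, with 114 of its exonic bases inside that gene body and none in Igf2r exons, and 742 lie inside the body of Mas1 with none in Mas1 exons. Meg3 (chr12:109541001-109571726), Rian (chr12:109603940-109661716) and Mirg (chr12:109729764-109749460) follow one another on the plus strand of chromosome 12. Miat (chr5:112213228-112229395, minus strand) is the mouse counterpart of a transcript linked to myocardial infarction in humans. Snhg11 (chr2:158375638-158386145, plus strand) hosts small nucleolar RNAs, and is annotated as protein coding in GENCODE vM21 and as a long noncoding RNA in RefSeq. The library kit keeps the strand, but the strand setting of the read counting is not given in the sources used here, so reads of Kcnq1ot1, Airn and Tug1 cannot be told apart from reads of Kcnq1, Igf2r, Mas1 and Morc2a where they overlap.

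Promoters of Malat1, Kcnq1ot1 and Airn are shown, as members whose levels followed the share of unannotated read pairs across libraries, from 250 bases before to 50 bases after the RefSeq start on GRCm38.p6. Capitals mark matches, on either strand, to the CCAAT box (CCAAT), the cyclic AMP response half-site (TGACG), the GC box (GGGCGG) and the TATA box (TATAAA), and none of the marked matches overlapped.
Malat1 promoter (chr19:5802623-5802922, minus strand): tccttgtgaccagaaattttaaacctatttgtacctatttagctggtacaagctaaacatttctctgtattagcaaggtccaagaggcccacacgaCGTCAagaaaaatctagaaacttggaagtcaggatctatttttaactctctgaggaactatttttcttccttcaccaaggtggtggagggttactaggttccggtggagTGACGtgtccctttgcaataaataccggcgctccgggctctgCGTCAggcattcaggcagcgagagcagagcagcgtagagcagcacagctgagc
Kcnq1ot1 promoter (chr7:143296498-143296797, minus strand): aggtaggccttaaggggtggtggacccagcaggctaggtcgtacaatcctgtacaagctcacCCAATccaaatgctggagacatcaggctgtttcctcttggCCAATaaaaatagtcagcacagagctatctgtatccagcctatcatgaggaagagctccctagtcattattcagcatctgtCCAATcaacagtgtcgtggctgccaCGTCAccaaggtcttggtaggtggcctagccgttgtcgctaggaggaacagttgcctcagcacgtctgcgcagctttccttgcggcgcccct
Airn promoter (chr17:12741061-12741360, plus strand): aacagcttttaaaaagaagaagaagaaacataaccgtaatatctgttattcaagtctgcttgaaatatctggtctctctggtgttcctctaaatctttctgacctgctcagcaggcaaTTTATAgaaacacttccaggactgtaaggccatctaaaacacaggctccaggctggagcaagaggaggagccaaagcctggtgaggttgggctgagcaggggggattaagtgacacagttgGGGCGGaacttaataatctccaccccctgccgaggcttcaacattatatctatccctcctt
Malat1 held 3 matches to the cyclic AMP response half-site, Kcnq1ot1 held 3 CCAAT boxes and 1 half-site, and Airn held 1 TATA box and 1 GC box. Of 32851 mouse promoters of this length, 37.4% held a CCAAT box, 20.8% the half-site, 35.7% a GC box and 13.6% a TATA box. A promoter was found for 9 of the 10 members, and the CpG count in it ranged from 0 in Rian to 37 in Tug1.

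Libraries held 24.3 to 42.2 M counted read pairs (median 32.7 M). A share of 2.45 to 12.6% of each library's read pairs fell in no annotated exon, which is called the no-feature share here. All 9 cardiomyocyte markers were found and summed to 45192 to 67187 CPM, counts scaled to library size, against 107 to 378 CPM for 8 endothelial, 88.0 to 330.2 CPM for 8 fibroblast, 130.1 to 539 CPM for 6 mural, 30.9 to 109 CPM for 8 leukocyte, 1.59 to 130.1 CPM for 3 atrial and 1.15 to 3.75 CPM for 8 glial and neuronal markers. Cask averaged 1.498 ± 0.891 CPM in CASK KO and 9.11 ± 0.61 CPM in CASK control cardiomyocytes, and Dlg1 averaged 12.1 ± 1.3 CPM in SAP97 KO and 60.5 ± 5.5 CPM in SAP97 control cardiomyocytes (SD, n = 3 each). Dmd averaged 104 ± 25 CPM in MDX (n = 4) and 298 ± 37 CPM in MDX control cardiomyocytes (n = 5). In the CASK line, Dmd averaged 173.9 ± 29.2 CPM in CASK KO and 47.3 ± 4.6 CPM in CASK control cardiomyocytes, so that the CASK controls lay below the MDX libraries. Ribosomal read pairs made up 0.49 to 7.86% of the MDX line libraries and 0.26 to 0.82% of the others.

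Malat1 was by far the most abundant of the 10 transcripts. It averaged 394 CPM per kilobase of summed exon length over the 21 libraries, and its reads alone were 0.0925 to 0.550% of all counted read pairs. Neat1 followed at 20.9, Tug1 at 3.38, Airn at 2.17 and Kcnq1ot1 at 0.471 CPM per kilobase. The transcripts of the Dlk1-Dio3 domain were low, with 0.0579 CPM per kilobase for Rian, 0.0317 for Meg3 and 0.0243 for Mirg. Snhg11 averaged 0.0105 and Miat 0.000798 CPM per kilobase.

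Miat had 5 counted read pairs in all and none in 16 of 21 libraries. Snhg11 had 57, with at most 9 per library and none in 5 libraries, and Mirg had 114, with 1 to 11 per library. A count of 0 allows up to 3 read pairs, which is 0.0723 to 0.125 CPM at these depths and covers counting error only. Miat lay under this limit in every library. The low-count filter therefore kept 7 of the 10 members in each line (Malat1, Neat1, Tug1, Kcnq1ot1, Airn, Meg3 and Rian), and Miat, Mirg and Snhg11 were not tested. By group, Mirg had 11, 6 and 9 read pairs in CASK KO and 1, 3 and 7 in CASK control libraries, 1, 3 and 7 in SAP97 KO and 7, 5 and 6 in SAP97 control libraries, and 3, 6, 4 and 7 in MDX and 5, 7, 8, 3 and 5 in MDX control libraries. Snhg11 had 4, 1 and 0 read pairs in CASK KO and 0, 1 and 2 in CASK control libraries, 5, 3 and 9 in SAP97 KO and 0, 5 and 0 in SAP97 control libraries, and 2, 1, 3 and 1 in MDX and 8, 4, 5, 3 and 0 in MDX control libraries. The groups of every line overlapped for both transcripts.

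The steadiest of the tested members was Tug1, whose highest library was 1.99 times its lowest. This ratio was 3.41 for Rian, 5.27 for Malat1, 5.88 for Airn, 8.94 for Kcnq1ot1, 10.8 for Neat1 and 13.5 for Meg3, the last of these on 3 to 32 read pairs per library. Ranked by group mean, Malat1, Neat1, Tug1 and Kcnq1ot1 were highest in SAP97 KO and Airn, Meg3 and Rian in MDX control libraries. Malat1, Neat1, Kcnq1ot1 and Airn were lowest in CASK control libraries. Between neighbouring groups in these orders the libraries overlapped for each tested member, except for Neat1 between MDX (269.7 to 642 CPM) and CASK control libraries (148 to 165 CPM).

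**Figure D1:**
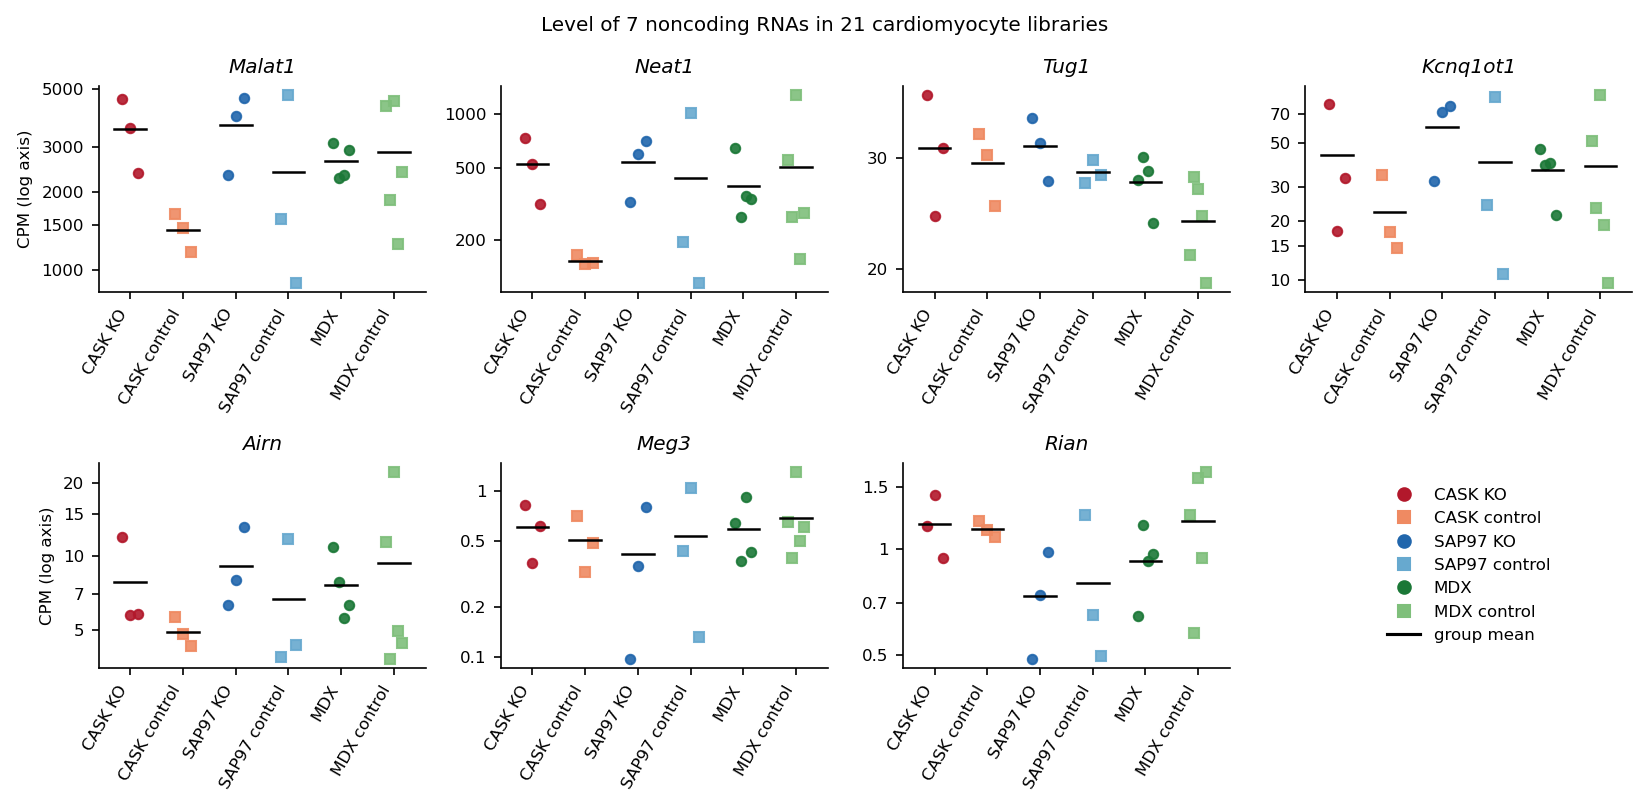
Levels of the 7 tested noncoding RNAs in CPM (log axis) in each of the 21 libraries, by group. Circles are CASK KO, SAP97 KO and MDX libraries, squares are controls, and bars are group means. The 3 CASK KO libraries lie above all 3 CASK control libraries for Malat1, Neat1 and Airn, while the other lines overlap.

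In the CASK line, which asks what loss of CASK in cardiomyocytes changes, Malat1 and Neat1 were higher in the knockout. Malat1 had 4586, 3551 and 2376 CPM in CASK KO libraries, against 1653, 1458 and 1177 CPM in CASK control libraries. Neat1 had 729.9, 530.4 and 318 CPM in CASK KO libraries, against 165, 148 and 150.1 CPM in CASK control libraries. Every knockout library was above every control library for both transcripts, and the 3 Neat1 controls lay within 1.12 times of each other. Malat1 was 2.49-fold higher (log2 fold change 1.32 ± 0.29, SE) and Neat1 was 3.47-fold higher (log2 fold change 1.79 ± 0.30, SE). Neither was called by edgeR's quasi-likelihood test at an adjusted p of 0.01 (edgeR adjusted p = 0.244 for Malat1 and edgeR adjusted p = 0.148 for Neat1). The test called 0 of 14963 genes in this line (0%).

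DESeq2, which called 0.654% of genes here, called both, with adjusted p = 0.000442 for Malat1 and 6.98e-07 for Neat1. Replicate numbers were taken to pair the CASK libraries, which no sample title states. With the number as a block edgeR called 11 of 14963 genes and neither transcript, at adjusted p = 0.0357 for Malat1 and 0.0321 for Neat1. In these bulk samples, more cells that carry a transcript and more of it per cell cannot be told apart. The 8 endothelial markers, none at 0, summed to 255 to 286 CPM in CASK KO and 152 to 223 CPM in CASK control libraries. Of these 8, 2 were higher and 0 lower at an unadjusted p under 0.05 in edgeR (4.53% and 4.31% of all genes). Their log2 fold changes ran from -0.30 to 0.93. Fibroblast, mural and leukocyte sums overlapped between groups, with lower means in CASK KO (211, 323 and 66.3 CPM) than in CASK control libraries (257, 388 and 79.7 CPM). The part of these markers in the Malat1 and Neat1 levels was not tested.

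The antisense imprinted transcripts were less even among the CASK knockouts. Kcnq1ot1 had 79.3, 17.9 and 33.2 CPM in CASK KO libraries, against 34.5, 17.6 and 14.5 CPM in CASK control libraries (log2 fold change 1.00 ± 0.54, SE, edgeR adjusted p = 0.678). Airn had 12.02, 5.72 and 5.79 CPM in CASK KO libraries, against 5.62, 4.79 and 4.28 CPM in CASK control libraries (log2 fold change 0.71 ± 0.32, SE, edgeR adjusted p = 0.579). CASK KO replicate 1 was the highest of the 6 for both. Against the CASK control of the same replicate number, Kcnq1ot1 was higher in 3 of 3 pairs, in replicate 2 at 17.9 against 17.6 CPM. In the fit with the block its log2 fold change was 0.84 ± 0.24 (SE, edgeR adjusted p = 0.183). Without CASK KO replicate 1, and without the block, the log2 fold change was 0.21 for Kcnq1ot1 and 0.24 for Airn, but 1.06 for Malat1 and 1.46 for Neat1.

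Tug1, Meg3 and Rian overlapped between the CASK groups. Tug1 had 37.8, 24.3 and 31.2 CPM in CASK KO and 32.9, 30.4 and 25.2 CPM in CASK control libraries. Meg3 had 0.826, 0.369 and 0.620 CPM in CASK KO and 0.706, 0.328 and 0.488 CPM in CASK control libraries. Rian had 1.16, 1.42 and 0.943 CPM in CASK KO and 1.1996, 1.13 and 1.08 CPM in CASK control libraries. Their log2 fold changes of 0.10, 0.27 and 0.07 were smaller than their standard errors of 0.20, 0.44 and 0.27. All 7 tested members had a log2 fold change above 0, as did 52% of all genes, with a median of 0.71 over the members and 0.01 over all genes. For 3 of 7 every CASK KO library was above every CASK control library, against 6.62% of all genes, and for 0 of 7 every one was below, against 7.69%. At an unadjusted p under 0.05, 2 of 7 were higher, against 4.53% of all genes, and 0 lower, against 4.31%.

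In the SAP97 line, the comparison moved with single control libraries. By the study's methods only the knockouts carried Cre in this line, so Cre and loss of SAP97 cannot be told apart. The genotype given with its sequencing metrics differs, and which one holds was not settled here. Malat1 had 2337, 3943 and 4607 CPM in SAP97 KO libraries, against 1573, 4734 and 898 CPM in SAP97 control libraries (log2 fold change 0.61 ± 0.55, SE). Neat1 had 326, 596 and 703 CPM in SAP97 KO libraries, against 197, 1012 and 117 CPM in SAP97 control libraries (log2 fold change 0.31 ± 0.70, SE). SAP97 control replicate 2 was above every other library of the line for both transcripts, whereas the other two controls were below every knockout.

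The same library was the highest of the SAP97 line for Kcnq1ot1. Kcnq1ot1 had 32.1, 71.6 and 77.1 CPM in SAP97 KO libraries, against 24.1, 85.9 and 10.7 CPM in SAP97 control libraries (log2 fold change 0.60 ± 0.65, SE). Airn had 6.34, 8.03 and 13.2 CPM in SAP97 KO libraries, against 3.88, 11.8 and 4.33 CPM in SAP97 control libraries (log2 fold change 0.49 ± 0.45, SE). Without SAP97 control replicate 2 the log2 fold changes were 1.59 for Malat1, 1.82 for Neat1, 1.82 for Kcnq1ot1 and 1.199 for Airn, with edgeR adjusted p of 0.140, 0.115, 0.143 and 0.163. Without SAP97 control replicate 3 they were 0.20 for Malat1, -0.16 for Neat1, 0.13 for Kcnq1ot1 and 0.23 for Airn (edgeR adjusted p = 0.999 for each). Over all libraries left out in turn they ranged from 0.20 to 1.59 for Malat1, -0.16 to 1.82 for Neat1, 0.13 to 1.82 for Kcnq1ot1 and 0.11 to 1.199 for Airn.

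Tug1 varied little in this line, with 34.8, 31.8 and 27.6 CPM in SAP97 KO and 27.4, 29.8 and 28.3 CPM in SAP97 control libraries. Meg3 had 0.0971, 0.352 and 0.808 CPM in SAP97 KO and 0.438, 1.04 and 0.132 CPM in SAP97 control libraries. Rian had 0.485, 0.740 and 0.981 CPM in SAP97 KO and 1.25, 0.649 and 0.496 CPM in SAP97 control libraries. The groups overlapped for each of the 7 tested members, whereas 7.06% of all genes had every SAP97 KO library above and 5.81% had every one below the SAP97 controls. EdgeR's quasi-likelihood test called none of them (adjusted p = 0.716 to 0.967), against 0.0204% of all genes. DESeq2 also called 0, against 0.256% of all genes, and 0 members had an unadjusted p under 0.05 in edgeR, where 4.69% of all genes were higher and 3.28% lower by that measure. In this line 5 members had a log2 fold change above 0 (54.8% of all genes) and 2 below, with a median of 0.31 over the members and 0.03 over all genes.

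In the MDX line, which asks what loss of dystrophin changes, the MDX libraries lay inside the range of the controls for Malat1, Neat1, Kcnq1ot1, Airn and Rian. Apart from replicate 5, MDX and MDX control mice also differed in background, so background and loss of dystrophin cannot be told apart. Malat1 had 3102, 2267, 2324 and 2909 CPM in MDX libraries, against 4295, 1865, 4522, 1261 and 2386 CPM in MDX control libraries (log2 fold change -0.12 ± 0.36, SE). Neat1 had 642, 269.7, 350.3 and 339 CPM in MDX libraries, against 553, 269, 1261, 158 and 284 CPM in MDX control libraries (log2 fold change -0.34 ± 0.54, SE). The controls spread 3.59-fold for Malat1 and 7.98-fold for Neat1, wider than the MDX libraries at 1.37-fold and 2.38-fold. The study's libraries were sequenced in more than 1 round, and which library was in which round is not given in the sources used here. No value within a round could therefore be given, and round and group cannot be told apart.

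Kcnq1ot1 and Airn were likewise widest among the controls. Kcnq1ot1 had 46.5, 38.6, 39.5 and 21.5 CPM in MDX libraries, against 51.1, 23.3, 87.3, 19.1 and 9.76 CPM in MDX control libraries (log2 fold change -0.07 ± 0.53, SE). Airn had 10.9, 7.86, 5.57 and 6.31 CPM in MDX libraries, against 11.5, 3.79, 22.3, 4.92 and 4.40 CPM in MDX control libraries (log2 fold change -0.29 ± 0.50, SE). MDX control replicate 3 was the highest library of the line for Malat1, Neat1, Kcnq1ot1 and Airn, and without it all 4 log2 fold changes were above 0, at 0.11, 0.34, 0.50 and 0.31.

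Tug1 had 27.7, 30.1, 28.7 and 23.7 CPM in MDX libraries, against 21.1, 28.0, 26.8, 24.3 and 18.997 CPM in MDX control libraries (log2 fold change 0.21 ± 0.15, SE). Meg3 had 0.644, 0.378, 0.923 and 0.430 CPM in MDX and 0.654, 0.394, 1.31, 0.502 and 0.610 CPM in MDX control libraries. Rian had 0.644, 1.17, 0.923 and 0.967 CPM in MDX and 1.25, 0.576, 1.59, 0.941 and 1.66 CPM in MDX control libraries. Of Tug1, 2 MDX libraries were above every control, and of Meg3 1 was below every control. No member's groups were separate, against 0.574% of all genes with every MDX library above and 0.68% with every one below the controls. EdgeR's quasi-likelihood test called 0 of the 7 (each at adjusted p = 1.00) and 0 of 14994 genes (0%), and DESeq2 called 0 members, against 0.1% of all genes. No member had an unadjusted p under 0.05 in edgeR, where 1.28% of all genes were higher and 1.44% lower by that measure. Of the 7 members, 6 had a log2 fold change below 0 and 1 above (48.2% of all genes above), with a median of -0.19 over the members and -0.01 over all genes. The labels mention poly-A selection for wild type samples, whereas the methods give depletion of ribosomal RNA for every line. Which of these applied to the wild type MDX control libraries could not be told from the sources used here. Malat1 averaged 2866 ± 1466 CPM (SD, n = 5) in them, inside the range of the other groups, which does not settle that question.

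**Figure D2:**
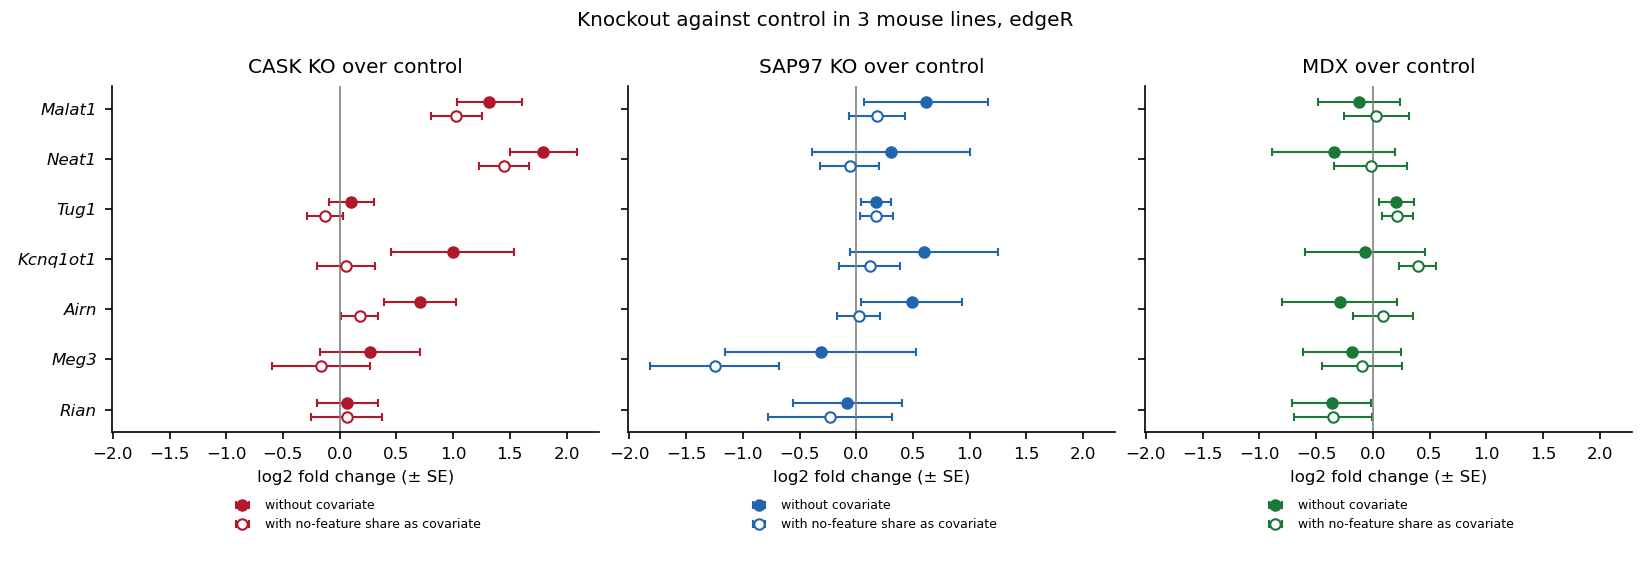
Log2 fold change (± SE) of the 7 tested noncoding RNAs in CASK KO, SAP97 KO and MDX cardiomyocytes, each over its own control, without (filled) and with (open) the no-feature share as a covariate. Malat1 and Neat1 stay above 1 in CASK KO in both fits, while Kcnq1ot1 moves to 0.06 with the covariate.

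The effects of the 3 lines were then set against each other in 1 edgeR model of the 21 libraries. Neat1's effect was higher in CASK KO than in MDX by 2.10 ± 0.90 (log2, SE, edgeR adjusted p = 0.684), and Malat1's by 1.41 ± 0.64 (edgeR adjusted p = 0.723). Against SAP97 KO, Neat1's effect in CASK KO was higher by 1.47 ± 0.97 (edgeR adjusted p = 0.967) and Malat1's by 0.70 ± 0.70 (edgeR adjusted p = 0.999). None of these differences passed the correction. In the 3 contrasts of effects, 0 members were called by edgeR, against 0.325% of genes for CASK KO minus SAP97 KO, 0.0751% for CASK KO minus MDX and 0.00626% for SAP97 KO minus MDX.

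Controls were also compared, as a line's own controls may lie apart. The log2 difference of Neat1 was -1.71 ± 0.65 (SE) for CASK control minus MDX control (edgeR adjusted p = 0.144), and -1.52 ± 0.70 for CASK control minus SAP97 control (edgeR adjusted p = 0.310). For Malat1 it was -1.003 ± 0.456 for CASK control minus MDX control (edgeR adjusted p = 0.222). EdgeR called 0 members between controls, against 2.2% of genes for CASK control minus MDX control, 0.282% for SAP97 control minus MDX control and 1.62% for CASK control minus SAP97 control. Cre, floxed alleles, background and line cannot be told apart in these contrasts.

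The no-feature share holds read pairs from introns, intergenic stretches and unannotated transcripts. It was 12.6, 4.24 and 4.97% in CASK KO and 5.73, 3.17 and 3.25% in CASK control libraries. In the SAP97 line it was 5.88, 9.06 and 11.9% in SAP97 KO and 4.10, 10.9 and 3.06% in SAP97 control libraries. In the MDX line it was 8.24, 5.48, 6.85 and 3.66% in MDX and 9.01, 4.87, 10.3, 5.04 and 2.45% in MDX control libraries. The shares overlapped in every line. By replicate number, which was taken to pair the CASK libraries, the share was higher in CASK KO in 3 of 3 pairs (exact permutation p = 0.25, the smallest that 3 pairs allow). The difference of means was 3.21 percentage points in the CASK line (7.26 ± 4.61% in CASK KO, 4.05 ± 1.45% in CASK control, exact permutation p = 0.3, 2-sided) and 2.93 in the SAP97 line (8.94 ± 2.99% in SAP97 KO, 6.01 ± 4.24% in SAP97 control, exact p = 0.4), where 3 against 3 libraries cannot give a p below 0.1. In the MDX line it was -0.28 (6.06 ± 1.96% in MDX, 6.33 ± 3.23% in MDX control, exact p = 0.857).

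Across the 21 libraries, 5 of the 7 tested members followed the no-feature share. Kcnq1ot1 did so most closely (Pearson r = 0.937, Spearman rho = 0.944, permutation p = 1e-05 for both, the smallest the draws can give, adjusted p = 0.00107). Its level was 9.76 CPM in the library with the lowest share, MDX control replicate 5 at 2.45%, and 79.3 CPM in the library with the highest, CASK KO replicate 1 at 12.6%. Airn had r = 0.871 (p = 0.00022) and rho = 0.847 (p = 0.00059), with an adjusted p of 0.00422 by permutation. Both are long antisense transcripts that are known to stay mostly unspliced in the nucleus.

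Neat1 had r = 0.808 (p = 0.00042) and rho = 0.8 (p = 0.00118), with a permutation adjusted p of 0.00578. Meg3, on 3 to 32 read pairs per library, had r = 0.778 (p = 0.00049) and rho = 0.784 (p = 0.00063), with a permutation adjusted p of 0.0063. Malat1 had r = 0.767 (p = 0.00222) and rho = 0.752 (p = 0.00299), with a permutation adjusted p of 0.0151. The relation did not pass for Tug1 (r = 0.406, rho = 0.418, permutation adjusted p = 0.282) or Rian (r = 0.116, rho = 0.118, permutation adjusted p = 0.791). All values are deviations from group means of log2 CPM, and p-values were adjusted over the 15985 genes tested. Many other genes behaved the same way, since 14.9% of them passed with a positive r and 12.6% with a negative r. In slopes, 1 percentage point of no-feature share went with 0.30 log2 units of Kcnq1ot1, 0.24 of Neat1, 0.21 of Airn, 0.20 of Meg3 and 0.16 of Malat1, against 0.03 of Tug1 and 0.01 of Rian. In edgeR the slope passed an adjusted p of 0.01 upward for 5 of 7 (8.89% of all genes) and downward for 0 of 7 (4.9%).

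The relation was also computed without single libraries and within lines. Leaving out CASK KO replicate 1 and SAP97 KO replicate 3, which had the highest shares and lay farthest from the median, gave r = 0.96 for Kcnq1ot1, 0.869 for Airn, 0.856 for Neat1, 0.785 for Malat1 and 0.785 for Meg3. Within the CASK, SAP97 and MDX lines in turn, r was 0.919, 0.936 and 0.968 for Kcnq1ot1 and 0.989, 0.973 and 0.861 for Airn. It was 0.743, 0.951 and 0.802 for Neat1, 0.737, 0.951 and 0.656 for Malat1, and 0.757, 0.928 and 0.682 for Meg3. For these 5, 3 of 5 had an unadjusted permutation p under 0.05 in the SAP97 line, 3 of 5 in the MDX line and 0 of 5 in the CASK line (permutation p = 0.0557 to 0.528). Adjusted over the 21 values of 7 members and 3 lines, 1 passed, Kcnq1ot1 in the MDX line (permutation adjusted p = 0.0204). Permutation within groups of 3 libraries allows few distinct orders. Malat1, Neat1 and Kcnq1ot1 in the SAP97 line shared a permutation p of 0.0272, about the smallest that such groups can give. A single value of the CASK or SAP97 line could therefore not pass this adjustment, and its failure to pass decides nothing there. The sign was the same in each line for these 5, whereas Tug1 had 0.816, -0.297 and 0.409 and Rian had -0.00512, 0.261 and 0.0456. Without SAP97 control replicate 2, Malat1 no longer passed (permutation adjusted p = 0.056), which left 4 of the 5.

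**Figure D3:**
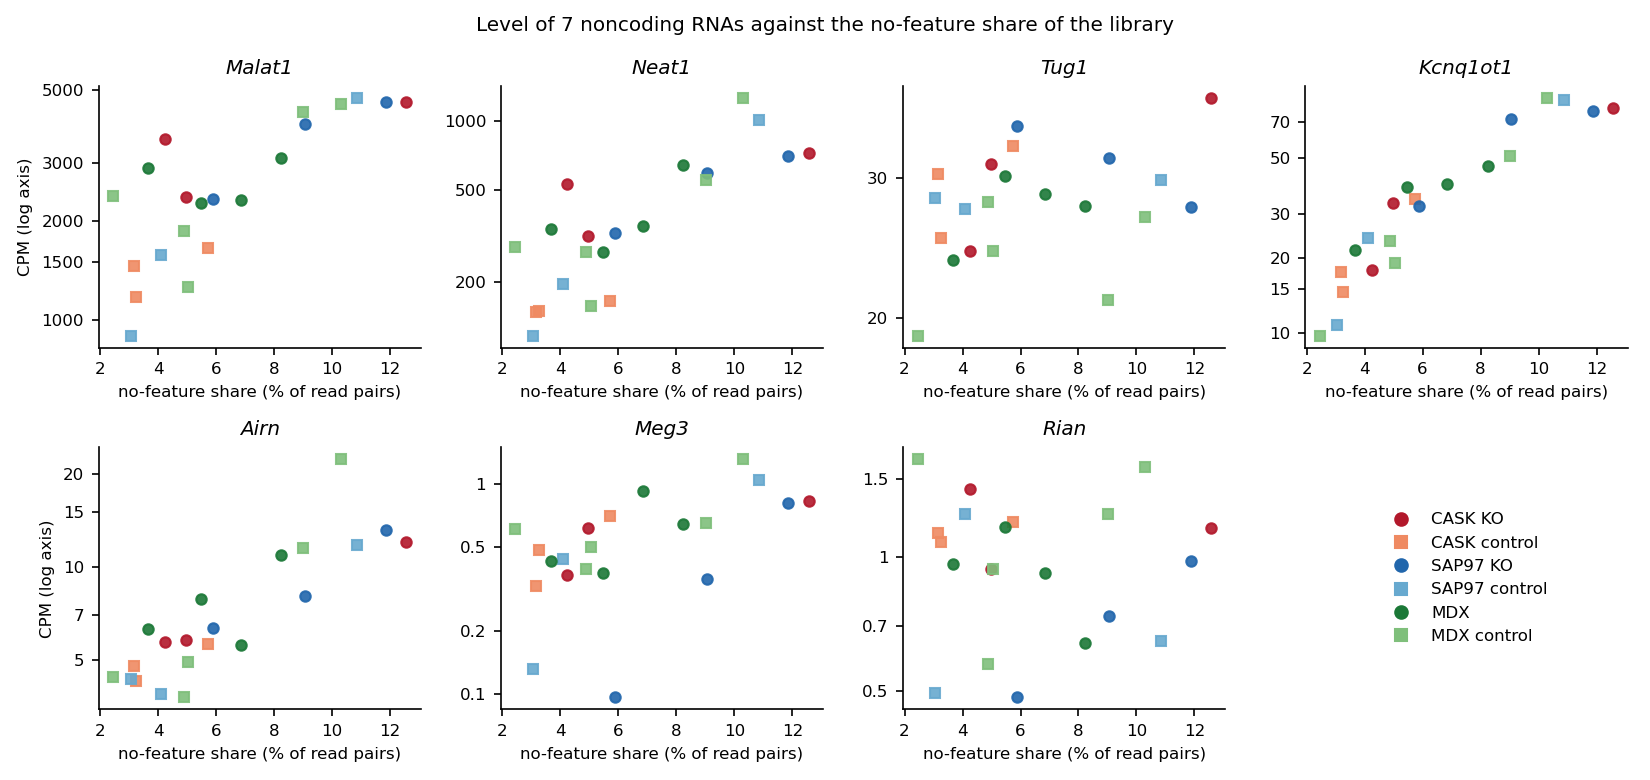
Level in CPM (log axis) of each of the 7 tested noncoding RNAs against the no-feature share of the library (% of read pairs), 21 libraries coloured by group. Kcnq1ot1 (r = 0.937) climbs along the whole range of shares in all 6 groups, and the points of Tug1 (r = 0.406) and Rian (r = 0.116) are scattered.

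With the no-feature share as a covariate, the members of the CASK line differed in how far their log2 fold changes moved. Malat1 had a log2 fold change of 1.03 ± 0.22 (SE, edgeR adjusted p = 0.128) and Neat1 of 1.45 ± 0.22 (SE, edgeR adjusted p = 0.0734) in this fit. Kcnq1ot1 had 0.06 ± 0.25 and Airn had 0.18 ± 0.16. With the same covariate in 1 model of the 21 libraries, the log2 fold change was 0.80 ± 0.34 for Malat1 (edgeR adjusted p = 0.533) and 1.04 ± 0.41 for Neat1 (edgeR adjusted p = 0.488). In the SAP97 line the covariate gave log2 fold changes of 0.18 for Malat1, -0.06 for Neat1, 0.12 for Kcnq1ot1 and 0.02 for Airn. In the MDX line it gave 0.03 for Malat1, -0.02 for Neat1, 0.39 for Kcnq1ot1 and 0.09 for Airn. Meg3 in SAP97 KO lay at -1.25 ± 0.57 with the covariate (edgeR adjusted p = 0.791). No member was called in a line with the covariate, and each of these fits estimates the slope from the 6 or 9 libraries of that line.

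The members also varied with one another. Of 21 pairs among the 7 tested members, 7 passed a permutation adjusted p of 0.05. Malat1 and Neat1, the neighbours on chromosome 19, formed the closest pair (r = 0.947, rho = 0.948, permutation p = 1e-05 for both, adjusted p = 0.0266). Their r was 0.924, 0.994 and 0.908 within the CASK, SAP97 and MDX lines, and 0.866 once the no-feature share was removed from both. Neat1 paired with Airn at r = 0.87 (adjusted p = 0.0245 by permutation) and 0.573 with the share removed.

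The other 5 pairs that passed nearly all lost their r once the share was removed. Kcnq1ot1 with Airn had r = 0.849 (adjusted p = 0.0112 by permutation), and 0.193 without the share. Neat1 with Kcnq1ot1 had 0.811 and 0.263, Kcnq1ot1 with Meg3 had 0.767 and 0.172, Neat1 with Meg3 had 0.746 and 0.319, and Meg3 with Airn had 0.665 and -0.04. Malat1 with Airn (r = 0.81, adjusted p = 0.0742 by permutation) and Malat1 with Kcnq1ot1 (r = 0.776, adjusted p = 0.112 by permutation) did not pass. Meg3 and Rian, transcribed in the same direction from one imprinted domain, had r = 0.424 (adjusted p = 0.999 by permutation). The share of all genes that passed with a positive r was 0.282% for Malat1, 4.83% for Neat1, 14.3% for Kcnq1ot1, 9.28% for Airn, 3.43% for Meg3, and 0% for Tug1 and Rian. The number of pairs that passed was 0 without MDX control replicate 3, 1 without SAP97 control replicate 2, and 2 without any 1 of CASK KO replicate 1, SAP97 KO replicate 3, SAP97 control replicate 1 or 3, or MDX control replicate 1. It was 3 without MDX replicate 2 and 4 without SAP97 KO replicate 1 or MDX control replicate 2. These counts follow the adjusted p and not the size of r. With 1 library left out in turn, r of Malat1 with Neat1 stayed between 0.914 and 0.959. It was 0.959 without MDX control replicate 3, where no pair passed. Among the other pairs that passed, the lowest r with 1 library left out was 0.578, for Meg3 with Airn.

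**Figure D4:**
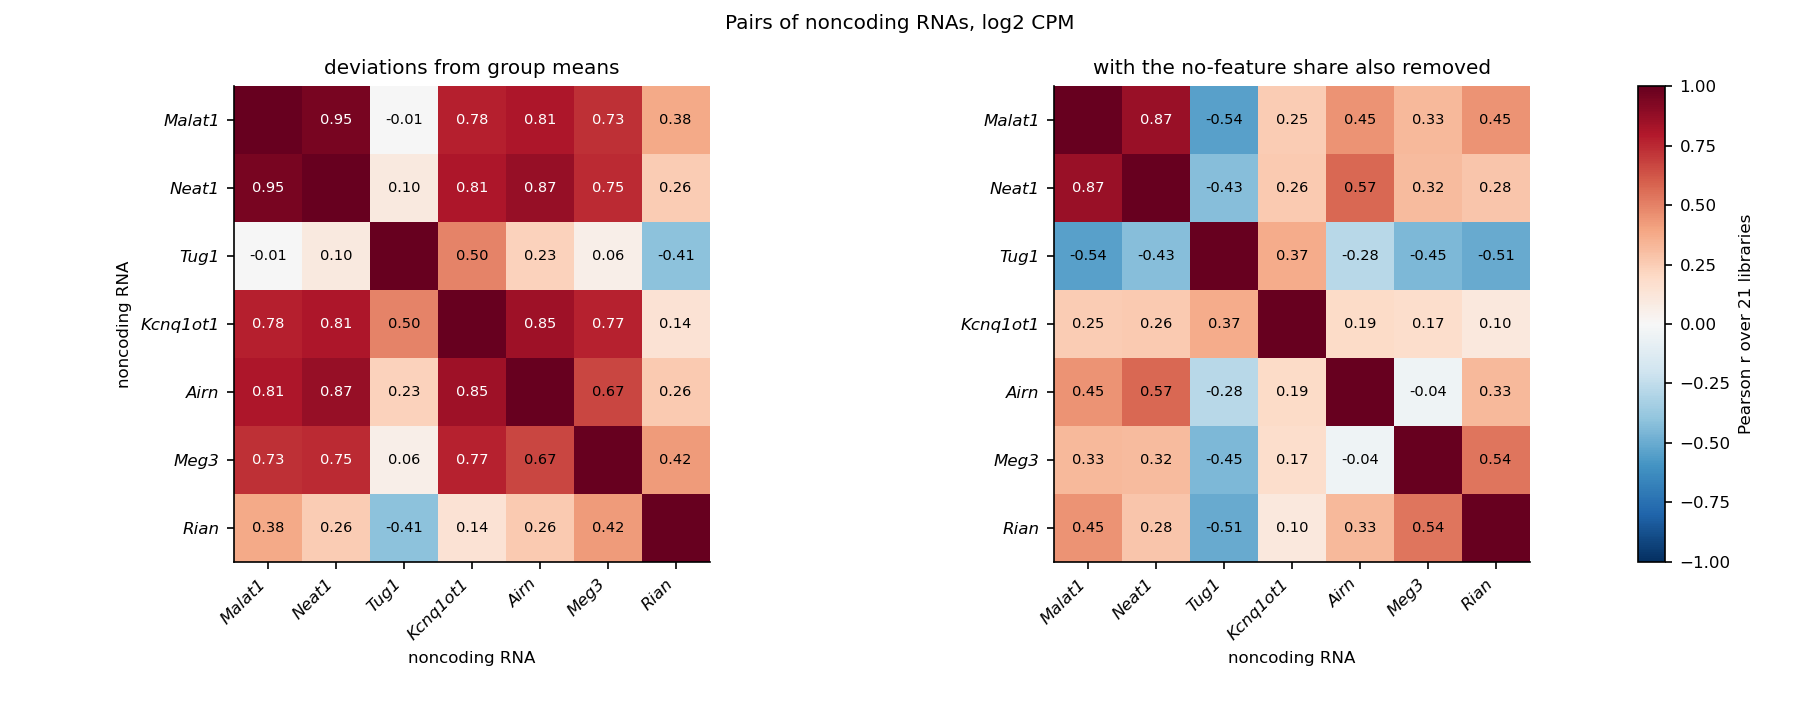
Pearson r between the 7 tested noncoding RNAs over 21 libraries, from deviations of log2 CPM from group means (left) and with the no-feature share also removed (right). Red is positive and blue negative. Malat1 with Neat1 keeps 0.866 on the right, while Kcnq1ot1 with Airn moves to 0.193.

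Among genes with a mean of at least 1 CPM, those most like Malat1, Neat1, Kcnq1ot1 and Airn over the 21 libraries included many with provisional names. For Malat1 they were Gm26621 (r = 0.949), Neat1 (0.947) and Abcc5 (0.940), which encodes an ABC transporter. For Neat1 they were Gm26632 (0.954), Gm15523 (0.949) and Malat1 (0.947). For Kcnq1ot1 they were Gm37524 (0.977), Gm10855 (0.969) and Nktr (0.969), a cyclophilin family gene. Airn was closest to Gm15948 (0.961), 1700109H08Rik (0.955) and Gm13833 (0.949). The genes closest to Malat1, Neat1, Kcnq1ot1 and Airn had an r of 0.806 to 0.938 with the no-feature share themselves, apart from Malat1 as a match of Neat1 at 0.767.

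Tug1 kept other company. Its closest genes were Cd164 (r = 0.929), which encodes a sialomucin, Ttn (0.878), which encodes titin, and Lpp (0.878), which encodes a LIM domain protein of focal adhesions, all at a permutation adjusted p of 0.065. Meg3 was closest to Megf11 (0.878), Slc26a1 (0.860) and Strbp (0.857). Rian was closest to Sema6b (0.820), Dnaja1 (0.789) and Bcdin3d (0.773), none of which passed (permutation adjusted p = 0.719 to 0.980).

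The genes that the antisense transcripts overlap did not share their pattern in full. Kcnq1, a potassium channel gene, ranged over 18.3 to 24.7 CPM in CASK KO and 20.8 to 25.2 CPM in CASK control libraries, where Kcnq1ot1 averaged 43.5 ± 32.0 and 22.2 ± 10.7 CPM. Kcnq1 was 27.6 ± 2.8 CPM in SAP97 KO and 19.9 ± 0.7 CPM in SAP97 control libraries (log2 fold change 0.51 ± 0.13, SE, edgeR adjusted p = 0.459). It followed the no-feature share at r = 0.612 (permutation adjusted p = 0.0173). Igf2r, the receptor gene that Airn silences on the paternal allele, averaged 352 ± 35 CPM in CASK KO and 351 ± 27 CPM in CASK control libraries, and its r with the share was -0.207 (permutation adjusted p = 0.569). Morc2a, opposite to Tug1, had r = 0.572 with the share (permutation adjusted p = 0.134).

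No gene of the 3 imprinted domains was called in any line by edgeR. It called 0% of all genes in CASK KO, 0.0204% in SAP97 KO and 0% in MDX. At an unadjusted p under 0.05 in edgeR, 1 of 6 Kcnq1 domain genes was lower in CASK KO (4.31% of all genes). In SAP97 KO 1 of 6 was higher (4.69%). Of the Igf2r domain, 1 of 4 was lower in SAP97 KO (3.28%) and 2 of 4 in MDX (1.44%). All other such counts in the domains were 0. In the Kcnq1 domain, 6 of 11 listed genes were tested. The extremes in CASK KO were Osbpl5 (log2 fold change -0.54, edgeR adjusted p = 0.349) and Cdkn1c (0.38), which encodes a cell cycle inhibitor silenced by Kcnq1ot1 on the paternal allele. In SAP97 KO they were Nap1l4 (-0.23) and Kcnq1, and in MDX Tssc4 (-0.08) and Cdkn1c (0.43). In the Igf2r domain, 4 of 6 genes were tested, and the highest was Mas1 at 0.64 in CASK KO and at 0.54 in SAP97 KO. In MDX the extremes were Slc22a3, which encodes an organic cation transporter, at -0.74 (edgeR adjusted p = 1.00) and Igf2r at -0.05. Of 5 neighbours in the Dlk1-Dio3 domain, Wdr25 was tested in each line (0.01, -0.09 and 0.01 in CASK KO, SAP97 KO and MDX), and Rtl1 only in CASK KO (0.58).

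Protein partners of Malat1 and Neat1 were read from lists of nuclear speckle and paraspeckle proteins. In CASK KO, 5 of 18 speckle genes were higher and 0 lower at an unadjusted p under 0.05 (4.53% and 4.31% of all genes), with a median log2 fold change of 0.36 against 0.01 over all genes. Their extremes were Clk1, a kinase of splicing factors, at 0.63 (edgeR adjusted p = 0.506) and Sf3b1, a spliceosome subunit, at -0.03. For paraspeckle proteins 3 of 15 were higher and 0 lower, with Smarca4 lowest at -0.20 and a median of 0.15. In SAP97 KO and MDX, 0 of 18 speckle and 0 of 15 paraspeckle genes had an unadjusted p under 0.05 in either direction, and the medians of both lists lay between -0.02 and 0.08. No gene of these lists was called by edgeR in any line, against 0% of all genes in CASK KO, 0.0204% in SAP97 KO and 0% in MDX.

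Of the neighbours of Malat1 and Neat1 on chromosome 19, 0 of 7 tested genes had an unadjusted p under 0.05 in CASK KO, and the median log2 fold change was -0.06, from Cdc42ep2 (-0.15) to Dpf2 (0.11). In SAP97 KO the extremes were Cdc42ep2 (-0.11) and Ltbp3 (0.81, edgeR adjusted p = 0.560), and in MDX Ltbp3 (-0.40) and Slc25a45 (0.22). Among 26 other long noncoding RNAs, 21 were tested in CASK KO, with 7 higher and 0 lower at an unadjusted p under 0.05 (4.53% and 4.31% of all genes) and a median of 0.25. The extremes were Mir17hg, a microRNA host, at 1.31 (edgeR adjusted p = 0.455) and Trp53cor1, a p53 target, at -0.74. In SAP97 KO 2 of 21 were higher and 1 lower (4.69% and 3.28% of all genes), between Pvt1 (1.19, edgeR adjusted p = 0.603) and Snhg8 (-0.55). In MDX 0 of 19 were higher and 1 lower (1.28% and 1.44% of all genes), between Mir17hg (0.78) and Firre (-1.37, edgeR adjusted p = 1.00).

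Imprinted genes outside the 3 domains lay on both sides of 0. In CASK KO 4 of 20 were higher and 2 lower at an unadjusted p under 0.05 (4.53% and 4.31% of all genes), from Plagl1 (-0.89) to Nnat (1.31, edgeR adjusted p = 0.472). In SAP97 KO the extremes were Ddc (-0.43) and H19 (1.39), with 1 of 21 higher (4.69% of all genes) and 0 lower, and in MDX Impact (-0.82, edgeR adjusted p = 0.923) and H19 (1.02), with 1 of 21 lower (1.44%) and 0 higher. Of 11 listed genes of Polycomb and G9a silencing, pathways used by Kcnq1ot1 and Airn, Ezh2 reached 0.68 in SAP97 KO (edgeR adjusted p = 0.624) and was the 1 gene with an unadjusted p under 0.05 in any line. Their extremes were Dnmt1 (-0.22) and Jarid2 (0.39) in CASK KO, Rnf2 (-0.19) in SAP97 KO, and Jarid2 (-0.27) and Rnf2 (0.16) in MDX. Short nuclear RNAs lay between Rmrp (-0.71) and Scarna2 (0.82, edgeR adjusted p = 0.436) in CASK KO, Scarna13 (-0.72, edgeR adjusted p = 0.588) and Rny1 (1.61) in SAP97 KO, and Terc (-0.16) and Rny3 (0.99) in MDX.

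The same lists were set against the no-feature share, with members named after their values were seen. For nuclear speckle proteins, 6 of 18 passed with a positive r (14.9% of all genes) and 0 with a negative r (12.6%). The 6 were Srrm1 (r = 0.911), Son (0.856), Srsf4 (0.824), Srsf11 (0.757), Srrm2 (0.737) and Pnisr (0.703). Srsf1, Srsf3 and Srsf5 of the same family had -0.409, -0.0426 and -0.114 and did not pass. For paraspeckle proteins, Sfpq (0.772), Rbm14 (0.765) and Smarca4 (0.616) were among those that passed upward and Hnrnpk (-0.626) passed downward, out of 14. Among other long noncoding RNAs, Ftx (0.789) and Jpx (0.777), both from the X inactivation centre, Dleu2 (0.739) and Gm26917 (0.704) passed upward, and the small nucleolar RNA hosts Snhg1 (-0.661) and Epb41l4aos (-0.674) downward, out of 21. These 4 upward and 2 downward are to be read against 14.9% and 12.6% of all genes.

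Of 5 tested Kcnq1 domain genes, 1 passed upward and 2 downward, against 14.9% and 12.6% of all genes. Nap1l4 (r = -0.759) and Tssc4 (-0.755) passed opposite to Kcnq1ot1 and Kcnq1, whereas Cd81 (-0.111) and Osbpl5 (0.0902) did not pass. Of 4 tested Igf2r domain genes, 1 passed upward and 0 downward. This was Mas1 (0.681), in the direction of Airn, 742 of whose exonic bases lie inside the Mas1 body on the opposite strand. Whether the antisense transcripts act on these genes was not tested. Of the 9 cardiomyocyte markers, 4 passed downward (12.6% of all genes) and 0 upward (14.9%). Those that passed were Myl2 (-0.752), Pln (-0.735), Tnni3 (-0.717) and Myl3 (-0.633). Atp2a2 (-0.511) and Tnnt2 (-0.347) did not pass, nor did Myh6 (0.182), Ryr2 (0.351) and Actn2 (0.440), which lay above 0. Of the endothelial, fibroblast, mural, leukocyte and atrial markers, 0 passed. The median r was 0.778 over the tested members, -0.511 over the cardiomyocyte markers and -0.0396 over all genes. The part of the cardiomyocyte markers in the relation was not tested.

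**Figure D5:**
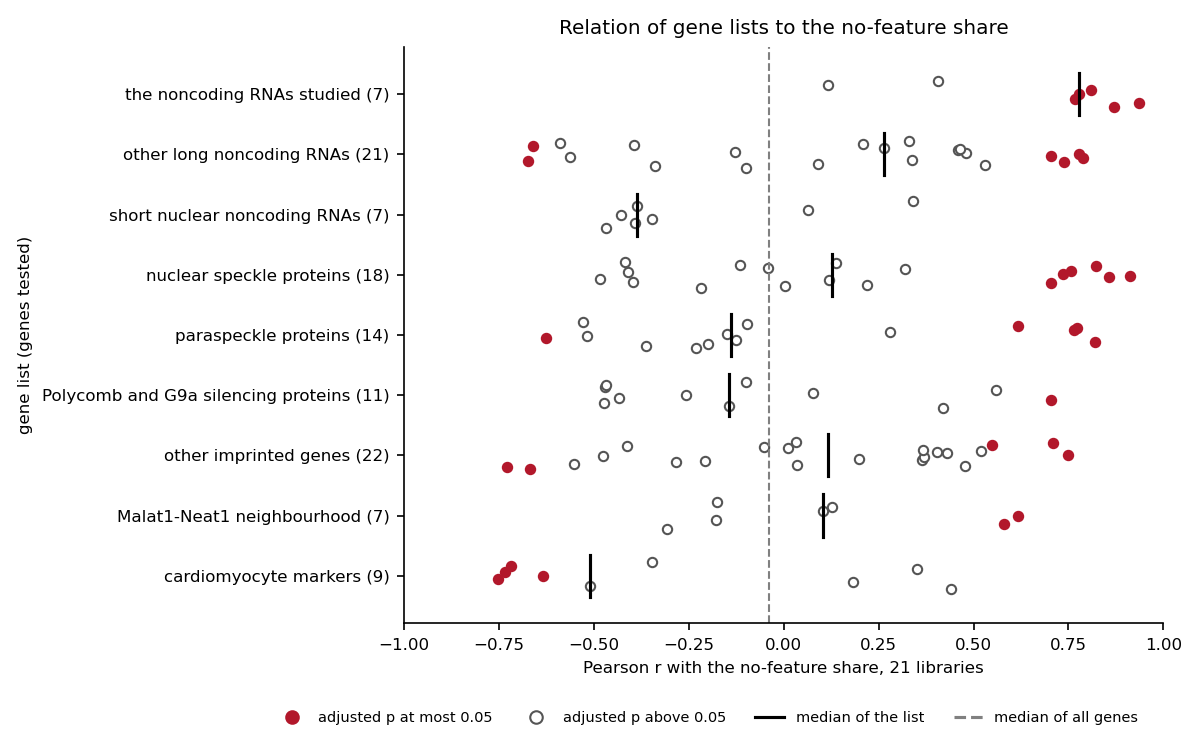
Pearson r of each gene with the no-feature share over 21 libraries, by gene list, with the number of genes tested in brackets. Filled points passed a permutation adjusted p of 0.05, black bars are list medians, and the dashed line is the median of all genes (-0.0396). Of the 7 members, 5 passed on the right, and 4 of 9 cardiomyocyte markers passed on the left.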

How the data were processed

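RNA of ventricular cardiomyocytes, isolated by collagenase perfusion on a Langendorff system, was sequenced as paired-end libraries after depletion of ribosomal RNA. The deposited counts are whole numbers of read pairs per gene, made by the authors without further scaling, and read pairs that overlapped more than 1 gene (11.5 to 23.1% of a library) were left out by their counting. Summed exon lengths in bases are those the authors deposited. Alignment to GRCm38 with TopHat2 2.0.13, counting with HTSeq 0.6.1 and tests with DESeq2 1.10.1 are named in the submitters' notes, besides FastQC 0.11.2 and Bowtie2 2.2.1. Columns of TPM, normalized values, fold changes and p-values that the authors deposited were not used. Counts of the 10 members in the 12 CASK and SAP97 libraries differed by at most 4 read pairs between the deposited tables, and 876 lines without an identifier were left out.

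Each line was tested in R 4.3.3 with edgeR 4.0.16 (filterByExpr, TMM, quasi-likelihood F test, 2-sided, Benjamini-Hochberg adjustment over all genes tested, called at an adjusted p of 0.01), with DESeq2 1.42.0 beside it. Contrasts between lines used 1 model of 21 libraries and 15985 genes. CPM are counts per 1000000 read pairs of the TMM-scaled library. Relations used log2 CPM with a prior count of 2, as deviations from group means, and 100000 permutations within groups, 2-sided, passed at an adjusted p of 0.05. They were adjusted over all genes, in place of the planned adjustment over the members alone. For a pair, the larger adjusted p of its 2 members was taken. Python 3.11.15 with numpy 2.4.6, pandas 2.3.3, scipy 1.17.1 and matplotlib 3.10.9 was used. Both procedures were tested on simulated data with 200 changed genes.

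The members and gene lists were chosen with earlier results of these data known. From each list the gene with the lowest and the gene with the highest log2 fold change per line were named, apart from some that are not reported here. Same-numbered CASK KO and CASK control libraries deviated together (r = 0.453, 0.233 and 0.223 for replicates 1, 2 and 3), so replicate numbers were taken to pair them. This pairing was read from the same counts that were tested, and no sample title states it. Groups came from the sample titles. Each library is a separate mouse, and p-values measure the spread between mice.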

Additional observations from a re-analysis of the deposited data

Results flagged for a closer look

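Meg3 in MDX control replicate 3 was at 1.307 CPM (23 read pairs), against 0.394 to 0.654 CPM in the other 4 MDX control libraries. Its gap to the next library was 0.716 of the group's range, above Dixon's critical value of 0.71. Groups of 4 or 5 libraries were looked at in 16 cases, and chance alone picks out about 1 in 20 of them. The same library had the highest no-feature share of the MDX line, at 10.3%.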

How the results depend on the processing

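Alternatives were other scalings, no low-count filter, DESeq2, other models, and each library left out. No line's members were called with a library left out, and 2 (Malat1, Neat1) were called in CASK KO with DESeq2 or without the filter. Neat1 alone was called without the filter in CASK control minus MDX control (1 member) and CASK control minus SAP97 control (1 member). With DESeq2, no filter, 1 model of 21 libraries and that model with the no-feature share, all-gene calls were 116, 182, 9 and 13 in CASK KO (0 in the fit per line), 46, 134, 6 and 5 in SAP97 KO (3) and 19, 6, 7 and 7 in MDX (0). Replicate numbers were not taken to pair SAP97 (r = 0.0114, 0.0957 and -0.345) or MDX libraries (-0.0737, 0.0658, 0.435 and 0.660). In MDX replicates 4 and 5 the r was of the size seen in the CASK line or above it. The block on replicate numbers gave 0 calls in SAP97 KO and 0 in MDX, and changed no member's call in any line. It turned MDX log2 fold changes to 0.24 (Malat1), 0.20 (Neat1), 0.53 (Kcnq1ot1) and 0.18 (Airn). The share as covariate turned Tug1 to -0.13 and Meg3 to -0.16 in CASK KO, Neat1 to -0.0574 in SAP97 KO, and Malat1 to 0.0314, Kcnq1ot1 to 0.39 and Airn to 0.0901 in MDX. In the model of 21 libraries it turned Tug1 to -0.01325, Kcnq1ot1 to -0.11, Meg3 to -0.41 and Airn to -0.0520 in CASK KO, Airn to -0.0230 in SAP97 KO, and Malat1 to 0.0466, Kcnq1ot1 to 0.36 and Airn to 0.0212 in MDX. None of these was called, and the cause was not tested. Without centring, r turned to -0.0355 (Rian with the share), 0.0414 (Malat1 with Tug1), -0.136 (Tug1 with Meg3) and -0.0322 (Kcnq1ot1 with Rian), and with RLE scaling to 0.0156 (Malat1 with Tug1). With 1 library left out, log2 fold changes ranged in CASK KO from -0.0771 to 0.26 (Tug1), -0.0434 to 0.58 (Meg3) and -0.08495 to 0.20 (Rian), in SAP97 KO from -0.16 to 1.82 (Neat1), -1.25 to 0.59 (Meg3) and -0.38 to 0.39 (Rian), and in MDX from -0.31 to 0.11 (Malat1), -0.67 to 0.34 (Neat1), -0.32 to 0.50 (Kcnq1ot1), -0.49 to 0.15 (Meg3) and -0.51 to 0.31 (Airn). Likewise r ranged from -0.12 to 0.0727 (Malat1 with Tug1), -0.0496 to 0.167 (Neat1 with Tug1), -0.0672 to 0.223 (Tug1 with Meg3) and -0.0145 to 0.345 (Kcnq1ot1 with Rian). The number of pairs that passed ranged from 0 to 7 and of members related to the share from 4 to 5. The r of Malat1 with Neat1 stayed between 0.914 and 0.959. The share differed by 0.558 to 4.72 points between CASK groups, 1.46 to 5.36 between SAP97 groups and -1.25 to 0.713 between MDX groups. Leaving libraries out of the share comparison, pairing it by replicate number, and the slope in edgeR, were chosen after seeing the data. Depth limits Miat, Mirg and Snhg11, which had at most 1, 11 and 9 read pairs in a library. A 0 allows a count of up to 3.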
